A study of Mus musculus with 6 samples.

Results

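Odc1, Amd1, Srm, Sms, Sat1, Smox, Paox, Oaz1, Oaz2 and Azin1 encode the enzymes that make and break down polyamines in mouse cells, together with the antizymes and the antizyme inhibitor that control the pathway. These 10 genes were chosen by name, as a list of pathway members, from the 56092 gene symbols with counts. All 10 passed the filter on low counts and were among the 13528 genes tested. RNA sequencing was performed on RAW264.7 cells, a mouse macrophage line, to ask how the transcripts of these cells changed when the debris receptor Trem2 was knocked down. The labels call shNC an empty vector control, while the study's methods list a negative-control hairpin under that name, and the shTrem2 cells carried a Trem2 shRNA, with 3 libraries in each group. Both groups were stable lines made with a lentiviral vector that also carried GFP, selected with puromycin, given IL-4 (20 ng/ml) over 24 hours and then kept for 24 hours with debris of TCMK-1 renal tubular epithelial cells. The study described 2 Trem2 shRNAs, and which of them the sequenced line carried is not stated in the labels. No library without IL-4 or without debris was analysed here, and the labels do not say whether the 3 libraries of a group came from separate cultures, so each p-value measures only the spread between these libraries, which may be technical.

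Polyamines are small positively charged molecules that bind nucleic acids and are needed for cell growth and translation. Ornithine decarboxylase, the product of Odc1, makes putrescine from ornithine, and spermidine synthase (Srm) and spermine synthase (Sms) then add aminopropyl groups that come from decarboxylated S-adenosylmethionine, the product of Amd1. Sat1 acetylates spermidine and spermine, Paox oxidizes the acetylated forms and Smox oxidizes spermine directly, so the chain can also run backwards. In macrophages that respond to IL-4, arginase-1 (Arg1) supplies ornithine to this pathway.

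The 3 members that fell by more than 1.5-fold, Odc1, Sat1 and Smox, have RefSeq start sites in the mouse build GRCm38.p6. The 250 bases upstream of each start are shown because these genes moved in the same direction. Capitals mark the GC box, searched as GGGCGG on both strands. The Odc1 window is chr12:17544623-17544872 (plus strand), the Sat1 window is chrX:155216450-155216699 (minus strand) and the Smox window is chr2:131491612-131491861 (plus strand), each written 5′ to 3′ along the gene.
Odc1: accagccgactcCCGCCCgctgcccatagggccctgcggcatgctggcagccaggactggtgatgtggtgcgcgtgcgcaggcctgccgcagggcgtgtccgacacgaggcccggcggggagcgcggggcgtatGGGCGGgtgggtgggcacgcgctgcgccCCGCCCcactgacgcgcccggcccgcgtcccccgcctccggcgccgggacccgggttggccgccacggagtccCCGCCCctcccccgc
Sat1: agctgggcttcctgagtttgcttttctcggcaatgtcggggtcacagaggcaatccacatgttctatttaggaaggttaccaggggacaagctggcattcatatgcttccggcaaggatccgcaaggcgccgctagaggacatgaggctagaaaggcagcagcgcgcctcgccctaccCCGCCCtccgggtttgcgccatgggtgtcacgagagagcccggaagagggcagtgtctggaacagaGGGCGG
Smox: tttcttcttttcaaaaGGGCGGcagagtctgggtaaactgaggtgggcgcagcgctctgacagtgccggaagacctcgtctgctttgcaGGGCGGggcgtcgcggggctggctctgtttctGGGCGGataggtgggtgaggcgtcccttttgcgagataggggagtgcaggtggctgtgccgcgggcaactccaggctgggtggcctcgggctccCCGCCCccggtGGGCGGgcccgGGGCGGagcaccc

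The Odc1 window held 4 GC boxes and 80.0% G and C, the Sat1 window 2 boxes and 59.6%, and the Smox window 6 boxes and 68.0%. Over all 32851 RefSeq windows of the same length, the median G and C content was 52.4%, and 32.7% held a GC box. Of the 10 members, 8 had such windows, 10 windows in all, and 8 of the 10 windows held a GC box. Counted by member, with any window enough, 7 of the 8 held it: Oaz2, Amd1 and Sms as well as Odc1, Sat1, Smox and Paox. The word did not separate the members that fell from those that did not. The window of Oaz1 and 1 window of Sms held none. The E-box CACGTG occurred in 1 member, Sms, and in 1 of the 10 windows, against 6.02% of all windows. The STAT6 half-sites TTC and GAA with 4 bases between (5.85% of all windows) and the cyclic AMP element TGACGTCA (1.55%) occurred in no member window. These 3 words read the same on either strand, and all matches describe letters in a window only.

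Transcript levels of the catabolic genes and of Odc1 were lower in shTrem2 cells, and the 2 antizymes were slightly higher. The remaining genes of synthesis (Srm, Sms and Amd1) and Azin1 did not pass the test. With edgeR's quasi-likelihood test and Benjamini-Hochberg adjustment over all 13528 genes, 6 of the 10 members had an adjusted p under 0.05, 4 of them lower and 2 higher in shTrem2. Over all genes tested, 57.4% passed the same threshold (28.6% lower and 28.8% higher). Only Odc1, Sat1 and Smox also differed by more than 1.5-fold, the study's criterion, which 21.8% of all genes met (12.4% lower, 9.46% higher). Levels in CPM (counts scaled to library size by TMM) did not overlap between groups for 7 members, 5 lower and 2 higher, against 63.8% of all genes (31.7% lower and 32.1% higher). The median log2 fold change of the members was -0.00018 and the median size of their change was 0.23, against 0.31 over all genes tested. The plot of the 10 members by library shows these values.

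**Figure D1:**
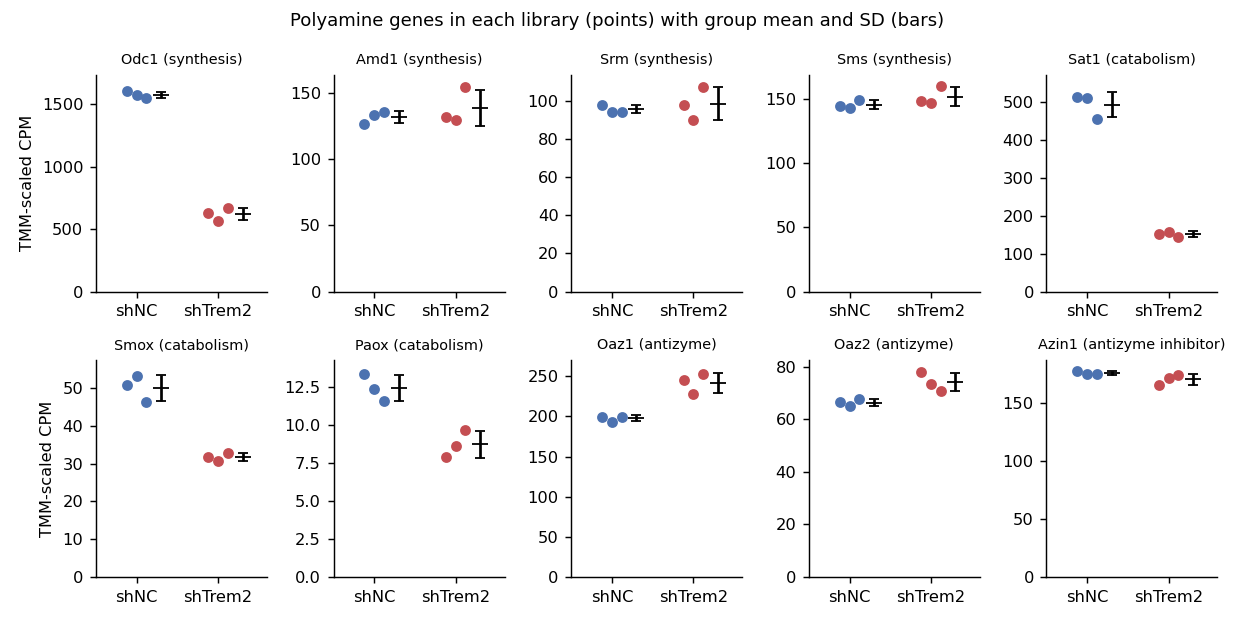
CPM (TMM-scaled, linear axis from 0) of each polyamine gene in the 3 shNC and 3 shTrem2 libraries, with the group mean and SD as bars. The shTrem2 libraries of Odc1 and Sat1 lie far below the shNC libraries, with means of 620 against 1573 and 151 against 493, while Srm, Sms and Amd1 overlap.

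Trem2 itself was measured at 114, 122 and 144 CPM in shNC and at 64.7, 63.2 and 80.2 CPM in shTrem2. All 3 shTrem2 libraries were below all 3 shNC libraries, and the log2 fold change was -0.87 ± 0.094 (SE; edgeR adjusted p = 3.39e-06). On log2(FPKM + 1) it was -2.06. The libraries held 15876061 to 18088372 counts in shNC and 19358113 to 19655158 in shTrem2, so depth moved with the group. Of 8 macrophage markers, 7 were tested and all 7 passed, 5 higher and 2 lower, against 57.4% of all genes (28.8% higher, 28.6% lower). Cd68 passed narrowly, with overlapping groups (log2 fold change 0.12, edgeR adjusted p = 0.0489). The summed level of the 8 ranged from 4972 to 5883 CPM in shNC and from 9964 to 11093 in shTrem2. Lyz2 carried most of this sum and of its rise, with 2805 ± 356 CPM in shNC and 7365 ± 544 in shTrem2, while Adgre1 and Itgam fell (log2 fold changes -0.56 and -0.78). Mertk, not tested, had 3 counts or fewer in every library. Of 12 tubular epithelial markers, 6 had 0 counts in all libraries (Epcam, Cdh1, Pax2, Umod, Slc12a1 and Slc12a3), 1 was tested (Aqp1, higher in shTrem2, at most 50 counts), and their sum stayed between 0.880 and 2.82 CPM. The part of depth and of the macrophage markers in the polyamine values was not tested, and in bulk RNA fewer cells that express a gene and less RNA per cell cannot be told apart.

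Odc1 (ENSMUSG00000011179), which encodes the enzyme that commits ornithine to the pathway, was measured at 1601, 1570 and 1548.5 CPM in shNC and at 630, 566 and 665 CPM in shTrem2. Every shTrem2 library was below every shNC library, and the groups were separated by many times their spread. The mean fell from 1573 ± 26.5 to 620 ± 50.1 CPM (SD, n = 3), which was 2.54-fold lower. The log2 fold change was -1.34 ± 0.057 (SE), with a 95% confidence interval from -1.46 to -1.22 and an adjusted p of 6.39e-10 in edgeR's quasi-likelihood test. The size of this change lay at the 94.2 percentile of all genes tested. Odc1 fell under all 18 alternative settings, between -1.40 and -1.28.

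The Odc1 counts came from 8 transcript rows. The largest row, identified through GENCODE M21 transcript lengths as the protein-coding Odc1-201, held 88.0% ± 0.18 of the gene in shNC and 88.3% ± 0.45 in shTrem2 (SD, n = 3). The next row matched Odc1-205 or Odc1-208, both annotated as nonsense-mediated decay transcripts, with 11.3% ± 0.14 in shNC and 10.9% ± 0.56 in shTrem2. The shares overlapped between groups (two-sided exact permutation p = 0.4 for each, with 0.1 the smallest that 3 against 3 allows), and the log2 ratios of the 2 rows, -1.34 and -1.39, were close to that of the gene. Of the 150-nt windows of Odc1-201, at most 1.99% occurred in any 1 of 4 annotated pseudogenes. Their counts added to those of Odc1 gave a log2 fold change of -1.34.

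Sat1 (ENSMUSG00000025283), the acetyltransferase that starts the way back from spermine and spermidine, showed the largest change among the 10. Its values were 513, 511 and 455 CPM in shNC and 153, 157 and 143 CPM in shTrem2. The lowest shNC library was far above the highest shTrem2 library. The mean fell from 493 ± 32.7 to 151 ± 7.25 CPM, 3.26-fold lower, with a log2 fold change of -1.71 ± 0.057 (SE; 95% interval -1.83 to -1.58; edgeR adjusted p = 1.06e-10), at the 96.8 percentile of all genes by size. Under the 17 alternatives the value ran from -1.76 to -1.68, and no other annotated gene shared a 150-nt window with Sat1-201.

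The protein-coding transcript Sat1-201 held 76.1%, 75.7% and 74.4% of the Sat1 counts in shNC and 72.6%, 72.5% and 66.3% in shTrem2. Each shTrem2 share was below each shNC share, and replicate 3 of shTrem2 was the lowest. The next 2 rows lay among Sat1-205 and Sat1-206, annotated as retained introns, and Sat1-207, annotated for nonsense-mediated decay, and which row is which was not settled by length. They held 13.9% ± 0.21 and 5.70% ± 0.18 in shNC and 15.8% ± 0.51 and 7.77% ± 1.09 in shTrem2, without overlap between groups. Each of these 3 differences gave a two-sided exact permutation p of 0.1, the smallest that 3 against 3 can give, so none could pass 0.05. The number of rows without overlap over all genes was not computed, here or for the members below. Shares of rows within a gene also depend on each other. All 3 Sat1 rows were lower in amount in shTrem2, with log2 ratios of -1.80, -1.52 and -1.27.

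Smox (ENSMUSG00000027333), which oxidizes spermine to spermidine and releases hydrogen peroxide, was at 50.9, 53.2 and 46.4 CPM in shNC and at 31.7, 30.6 and 32.8 CPM in shTrem2. The groups did not overlap. The mean fell from 50.2 ± 3.45 to 31.7 ± 1.07 CPM, 1.58-fold lower (log2 fold change -0.66 ± 0.067 SE, 95% interval -0.81 to -0.52, edgeR adjusted p = 1.94e-06), and the alternatives ran from -0.72 to -0.63. The lower end of the interval in size is under the 1.5-fold line, since the shTrem2 level was between 0.572 and 0.699 of the shNC level. The 17 Smox rows could not be assigned to transcripts. Of the 14 rows above 0, 3 had shares without overlap (two-sided exact permutation p = 0.1 for each of the 3, the smallest possible). How many rows of all genes lacked overlap was not computed. The most abundant of the 3 held 17.1% ± 2.85 of the gene in shNC and 10.8% ± 2.06 in shTrem2. The others, rows 10 and 12 by abundance, were near 0, at 0.990 and 0.257 CPM in shNC and 0.370 and 0 CPM in shTrem2.

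Paox (ENSMUSG00000025464), the oxidase of acetylated polyamines, was the least abundant member. It was at 13.4, 12.4 and 11.6 CPM in shNC and at 7.93, 8.62 and 9.68 CPM in shTrem2, without overlap. The mean fell from 12.5 ± 0.878 to 8.74 ± 0.884 CPM, 1.42-fold lower, with a log2 fold change of -0.51 ± 0.12 (SE; 95% interval -0.77 to -0.25; edgeR adjusted p = 0.00234). This call ended where transcript length entered the value. On log2(FPKM + 1) the change was -0.37 (limma adjusted p = 0.0644), and over all alternatives the adjusted p ran from 0.000291 to 0.0701. Of the Paox-201 windows, 23.5% occurred in the pseudogene Gm19680, and the summed counts gave -0.46 (edgeR adjusted p = 0.00381).

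The remaining genes of synthesis did not pass the test. Srm (ENSMUSG00000006442), which makes spermidine, was at 97.8, 94.2 and 94.2 CPM in shNC and at 97.7, 90.0 and 107 CPM in shTrem2. Sms (ENSMUSG00000071708), which makes spermine, was at 145, 143 and 149 CPM in shNC and at 148, 147 and 160 CPM in shTrem2. Amd1 (ENSMUSG00000075232), which makes the aminopropyl donor, was at 126, 133 and 135 CPM in shNC and at 131, 129 and 154 CPM in shTrem2. For all 3 genes the groups overlapped, and replicate 3 of shTrem2 was the highest of the 6 libraries.

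In edgeR's test the log2 fold change was 0.04 for Srm (95% interval -0.09 to 0.18, adjusted p = 0.573), 0.06 for Sms (-0.05 to 0.16, adjusted p = 0.324) and 0.07 for Amd1 (-0.07 to 0.21, adjusted p = 0.364). The upper bounds correspond to shTrem2 levels of 1.13, 1.12 and 1.16 times those of shNC, and the lower bounds to 0.939, 0.968 and 0.955 times. Without replicate 3 of shTrem2 the value turned to -0.03 for Srm and -0.02 for Amd1, and on log2(FPKM + 1) it turned to -0.03 for Sms.

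The Amd1 value carries more doubt than the others. The gene Amd2 encodes a near copy, with 99.9% identity over the 1005 coding bases, and 61.9% of the 150-nt windows of Amd1-201 occurred in Amd2 as well. In addition, 2 Amd1 rows held identical values in all 6 libraries, each 49.4% of the gene in shNC. A single one of these rows averaged 65.1 ± 2.33 CPM over the shNC libraries and 68.2 ± 7.07 over the shTrem2 libraries, so if the table holds a transcript in duplicate, the printed level of Amd1 is too high by that amount. The counts of Amd1 and its copies together gave a log2 fold change of 0.08 (edgeR adjusted p = 0.265). For Sms, 26.7% of the windows occurred in the pseudogene Sms-ps, whose counts came to 29.5% of those of Sms, and the sum gave 0.06 (edgeR adjusted p = 0.258).

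In Srm, the retained-intron transcript Srm-203 had a small share that did not overlap between groups. It held 0.825%, 0.709% and 0.796% of the Srm counts in shNC and 2.35%, 2.57% and 2.71% in shTrem2, while the protein-coding Srm-201 held the rest. The shTrem2 shares were all above the shNC shares (two-sided exact permutation p = 0.1, the smallest possible). How often rows of other genes lacked overlap was not computed.

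Oaz1 and Oaz2 encode antizymes, which bind ornithine decarboxylase, lead it to the proteasome and lower polyamine uptake. Their proteins are made only when the ribosome shifts frame at a stop codon, a shift that polyamines promote. The 25 bases around this site are shown because the shift takes place in them. They were read from the GENCODE M21 transcripts Oaz1-205 (annotated as protein coding) and Oaz2-203 (annotated as a processed transcript). Capitals mark the last sense codon, the stop codon and the next base.
Oaz1: cggtggtgcTCCTGATgtccctcac
Oaz2: ctgtggtgcTCCTGATgcccctcac

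Oaz1 (ENSMUSG00000035242) was at 200, 193 and 200 CPM in shNC and at 245, 228 and 252 CPM in shTrem2. The shTrem2 libraries were all higher. The mean rose from 197 ± 3.76 to 242 ± 12.5 CPM, 1.23-fold, with a log2 fold change of 0.29 ± 0.048 (SE; 95% interval 0.19 to 0.40; edgeR adjusted p = 0.000148), under the 1.5-fold criterion. This is a rise in transcript, and frame shifting was not measured. The 6 Oaz1 rows could not be assigned to transcripts. The largest held 89.3% ± 0.083 of the gene in shNC and 93.0% ± 0.61 in shTrem2. The next held 9.78% ± 0.12 in shNC and 6.23% ± 0.74 in shTrem2. Neither share overlapped between groups (two-sided exact permutation p = 0.1 for each, the smallest possible). How common this is over all genes was not computed, and the shares of both rows depend on each other. The log2 ratios of the amounts of these rows were 0.35 and -0.36, so the rise was not shared by both rows.

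Reads of Oaz1 could be divided with a pseudogene. Of the Oaz1-201 windows, 35.9% occurred in Oaz1-ps, whose counts came to 41.9% of those of Oaz1. Oaz1-ps was itself at 78.3, 77.3 and 78.0 CPM in shNC and at 115, 99.4 and 104 CPM in shTrem2 (log2 fold change 0.44, edgeR adjusted p = 2.06e-05). The 2 together rose from 275 to 348 CPM, with a log2 fold change of 0.34 ± 0.047 (SE; edgeR adjusted p = 3.80e-05).

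Oaz2 (ENSMUSG00000040652) was at 66.6, 65.0 and 67.6 CPM in shNC and at 78.0, 73.6 and 70.9 CPM in shTrem2, without overlap. The mean rose from 66.4 ± 1.33 to 74.2 ± 3.59 CPM, 1.12-fold, with a log2 fold change of 0.16 ± 0.056 (SE; 95% interval 0.04 to 0.28; edgeR adjusted p = 0.0240). This was the weakest of the 6 calls. It ended without replicate 1 of shNC (0.15, edgeR adjusted p = 0.0693), without replicate 2 of shNC (0.14, 0.109) and without replicate 1 of shTrem2 (0.13, 0.117). On log2(FPKM + 1) it was 0.07 (limma adjusted p = 0.280), and the adjusted p ran from 0.0153 to 0.283 over all alternatives. The shares of the 2 largest Oaz2 rows overlapped between groups. Rows 3 and 4 by abundance did not overlap (two-sided exact permutation p = 0.1 for each). Their mean shares were 2.56% and 1.04% in shNC and 1.53% and 0.70% in shTrem2.

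Azin1 (ENSMUSG00000037458) encodes the antizyme inhibitor, a relative of ornithine decarboxylase that binds antizyme and so frees the enzyme. It was at 178, 175 and 175 CPM in shNC and at 166, 172 and 175 CPM in shTrem2. The highest shTrem2 library lay just below the lowest shNC library. The log2 fold change of -0.04 (95% interval -0.14 to 0.05) did not pass edgeR's test (adjusted p = 0.413).

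Within Azin1, the protein-coding Azin1-201 held 48.1%, 45.4% and 52.1% of the counts in shNC and 64.7%, 63.7% and 58.4% in shTrem2. The shTrem2 shares were all higher, with means of 62.3% ± 3.35 against 48.5% ± 3.38. The next 2 rows, which are Azin1-203 (protein coding) and Azin1-205 (nonsense-mediated decay) in an order that was not settled, held 39.2% ± 4.00 and 11.0% ± 1.14 in shNC and 28.7% ± 3.96 and 7.34% ± 0.867 in shTrem2. None of the 3 rows overlapped between groups, and each gave a two-sided exact permutation p of 0.1, the smallest possible. Such rows were not counted over all genes, and the 3 shares depend on each other. The log2 ratios of the amounts were 0.31, -0.49 and -0.63, so rows of opposite direction summed to the small change of the gene. These shares are the authors' estimates for transcripts that overlap in sequence.

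**Figure D2:**
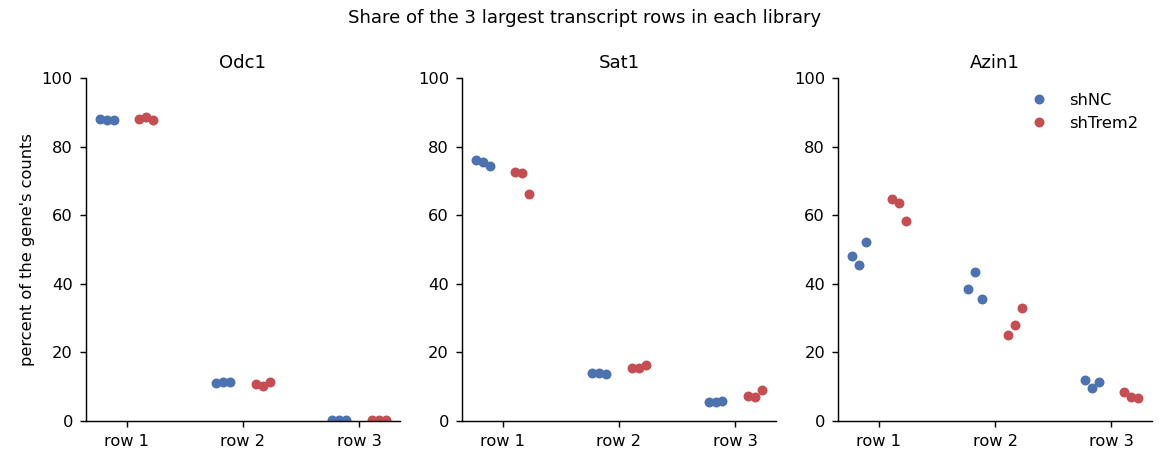
Percent of each gene's counts (axis 0 to 100) in its 3 largest transcript rows, 1 point per library, for Odc1, Sat1 and Azin1. Row 1 is Odc1-201, Sat1-201 and Azin1-201, and the Azin1-201 share is 48.5% in shNC and 62.3% in shTrem2 while the Odc1-201 share is 88.0% and 88.3%.

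Beside the fold changes, the plot of log2 fold changes shows how far each interval lies from 0. The intervals of Odc1 and Sat1 lie wholly beyond the 1.5-fold line, and those of Smox and Paox cross it.

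**Figure D3:**
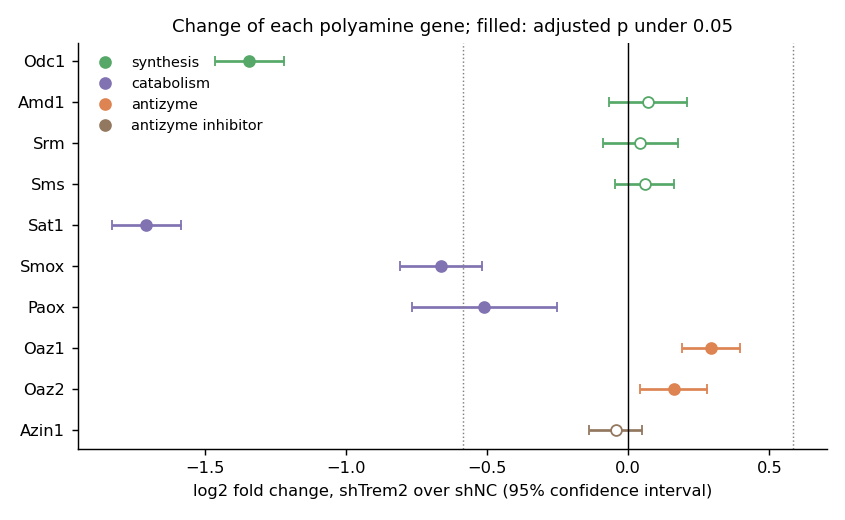
Log2 fold change of each polyamine gene, shTrem2 over shNC, from edgeR's quasi-likelihood fit with its 95% confidence interval. Filled points have an adjusted p under 0.05, and dotted lines mark 1.5-fold; Sat1 (-1.71) and Odc1 (-1.34) are farthest from 0, and Srm, Sms, Amd1 and Azin1 span 0.

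Levels between genes were compared per length, with the FPKM values that the authors deposited. In shNC, Odc1 was the most abundant member at 896 ± 17.5 FPKM (SD, n = 3), followed by Sat1 at 588 ± 41.0, Oaz1 at 261 ± 5.80, Srm at 95.1 ± 2.55 and Sms at 72.7 ± 3.17. Oaz2 (56.8 ± 2.00), Amd1 (47.3 ± 1.42), Azin1 (44.2 ± 1.01), Smox (31.4 ± 1.44) and Paox (4.60 ± 0.485) came below. No gene's range over the 3 shNC libraries overlapped that of its neighbour in this order. The place of Amd1 is in doubt, since its identical count rows may also enter its FPKM, which was not tested.

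In shTrem2 the top of the order was different. Odc1 at 348 ± 26.9 FPKM and Oaz1 at 319 ± 19.4 had overlapping ranges, and Sat1 at 174 ± 6.56 came below them. The order of the other 7 genes was the same as in shNC, from Srm at 97.3 ± 9.25 to Paox at 3.37 ± 0.659. The doubt about the place of Amd1 holds here too. The ratio of Odc1 to Oaz1 FPKM was 3.45, 3.53 and 3.33 in shNC and 1.10, 1.07 and 1.10 in shTrem2. The ratio of Sat1 to Srm was 6.19 ± 0.345 in shNC and 1.80 ± 0.234 in shTrem2. These ratios describe levels of transcript, and the Oaz1 level leaves out the counts given to its pseudogene.

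**Figure D4:**
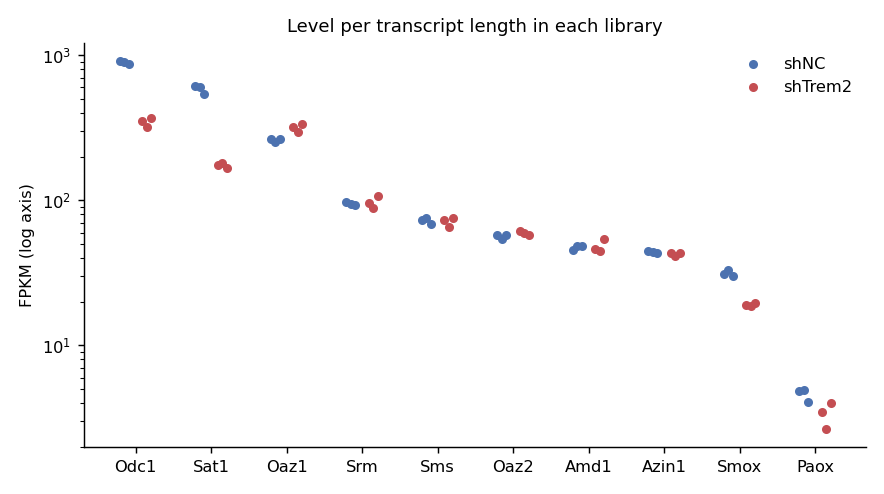
FPKM on a log axis for the 10 polyamine genes, ordered by their shNC mean, with 1 point per library. Odc1 and Sat1 lead in shNC at 896 and 588 FPKM, whereas in shTrem2 Odc1 (348) overlaps Oaz1 (319) and Sat1 is at 174.

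Further genes of the pathway and its supply lines were read from 6 lists with 47 genes, of which 34 were tested. In edgeR's test 23 passed, 14 higher and 9 lower, against the 57.4% of all genes given above (28.8% higher, 28.6% lower), and 10 differed by more than 1.5-fold, 4 higher and 6 lower, against 21.8% of all genes (9.46% higher, 12.4% lower). The counts of each list below read against the same shares. Their median log2 fold change was 0.17. Sequence copies of these genes were not searched.

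Of 8 tested genes of ornithine supply and arginine use, 5 were lower and 2 were higher. Among the 5, Gatm passed narrowly (log2 fold change -0.11, edgeR adjusted p = 0.0457) and kept its call in 8 of 17 alternatives. Arg1, whose product the labels use to name these cells Arg1+, had 2, 2 and 2 counts in shNC and 1, 3 and 1 counts in shTrem2. No library exceeded 3 counts, the amount that a count of 0 allows (0.153 to 0.189 CPM), so Arg1 could not be compared between groups. By other assays, the study reported more Arg1 transcript and protein in RAW264.7 cells after IL-4. It also reported less Arg1 after IL-4 when Trem2 was knocked down. The reason for the difference from these counts was not tested. Arg2 was no higher than 0.313 CPM in any library and was not tested.

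Nos2, which uses arginine to make nitric oxide and citrulline, was at 88.0, 81.6 and 62.8 CPM in shNC and at 25.9, 24.7 and 21.4 CPM in shTrem2 (log2 fold change -1.69 ± 0.11 SE, edgeR adjusted p = 3.17e-08). The groups did not overlap. Ass1 and Asl, which rebuild arginine from citrulline, fell from 4.48 ± 0.782 to 0.502 ± 0.16 CPM (-3.14, or -1.65 on log2(FPKM + 1)) and from 41.4 ± 4.15 to 28.6 ± 1.03 CPM (-0.53). Ass1 had 65 to 97 counts in shNC and 7 to 13 in shTrem2, so it passed the filter on low counts through shNC and dropped out where at least 10 counts were required in every library. Pycr1, which makes proline, fell from 31.2 ± 1.54 to 12.6 ± 3.81 CPM (-1.30). Aldh18a1, which makes the precursor of proline and ornithine from glutamate, rose from 171 ± 3.83 to 233 ± 42.4 CPM (0.44, edgeR adjusted p = 0.00149), and this call ended on log2(FPKM + 1), at 0.38 (limma adjusted p = 0.0574).

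Of 5 transport genes tested, 3 were higher and none was lower. Slc7a1, an importer of arginine, lysine and ornithine, was at 189, 184 and 200 CPM in shNC and at 377, 370 and 317 CPM in shTrem2. Every shTrem2 library was above every shNC library (log2 fold change 0.89 ± 0.063 SE, edgeR adjusted p = 6.12e-08). Slc3a2, the heavy chain of several amino acid transporters, rose from 172 ± 5.06 to 244 ± 35.5 CPM (0.51), and Atp13a2, a lysosomal polyamine exporter, from 261 ± 12.7 to 295 ± 17.3 CPM (0.17). The Atp13a2 call ended without replicate 1 of shNC (0.13) and without replicate 1 of shTrem2 (0.14). Slc7a2, the importer often linked to IL-4 responses, had 0 counts in all 6 libraries.

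Spermidine is used to make hypusine, an amino acid found in the translation factor Eif5a. Eif5a was at 777, 755 and 779 CPM in shNC and at 1008, 919 and 1073 CPM in shTrem2. All shTrem2 libraries were higher (log2 fold change 0.38 ± 0.055 SE, edgeR adjusted p = 5.05e-05). Dhps, the enzyme that transfers the aminobutyl group of spermidine, rose from 11.3 ± 1.42 to 14.3 ± 0.043 CPM (0.34, edgeR adjusted p = 0.0170), a call that ended on log2(FPKM + 1), at 0.04 (limma adjusted p = 0.852), and without replicate 1 or 2 of shNC (0.29 and 0.28).

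Decarboxylated S-adenosylmethionine leaves methylthioadenosine, which the methionine salvage enzymes recycle. Of 8 genes of the methionine cycle and salvage tested, 4 were higher and 1 was lower. Apip rose from 4.75 ± 0.67 to 10.1 ± 1.28 CPM (log2 fold change 1.08), Enoph1 from 15.97 ± 0.346 to 26.1 ± 3.27 (0.71) and Adi1 from 32.2 ± 3.01 to 48.6 ± 0.507 (0.60). All 3 act in salvage, and each passed the 1.5-fold criterion. The lower gene was Mri1, also a salvage enzyme, which fell from 34.9 ± 2.25 to 29.2 ± 2.69 CPM (-0.26, edgeR adjusted p = 0.0137), a call that ended without replicate 3 of shNC (-0.21), without replicate 2 of shTrem2 (-0.18) and on log2(FPKM + 1), at -0.27 (limma adjusted p = 0.356). Mtap, the first enzyme of salvage, was at 77.7 ± 5.99 CPM in shNC against 84.8 ± 4.88 in shTrem2 and did not pass (0.13, edgeR adjusted p = 0.115). Mat2a, which makes S-adenosylmethionine, rose from 156 ± 22.5 to 231 ± 30.9 CPM (0.57, edgeR adjusted p = 0.000217).

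Odc1 is a textbook target of Myc. Myc was at 2.80, 2.94 and 2.64 CPM in shNC and at 4.70, 3.29 and 3.30 CPM in shTrem2, without overlap, and the log2 fold change of 0.43 did not pass edgeR's test (adjusted p = 0.104, with 0.0338 to 0.408 over all alternatives). Mycn, far more abundant in these cells, rose from 597 ± 7.13 to 751 ± 25.2 CPM (0.33), and Max, the partner of both, from 91.1 ± 6.24 to 122 ± 2.64 CPM (0.43). Mxd1, which competes for Max, fell from 13.5 ± 0.722 to 6.22 ± 0.584 CPM (-1.12). Mnt, which also binds Max, rose from 45.7 ± 1.38 to 52.8 ± 0.832 CPM (0.21, edgeR adjusted p = 0.00596), a call that ended on log2(FPKM + 1), at 0.19 (limma adjusted p = 0.0548). In all, 3 of the 6 genes of this list were higher and 1 was lower. Odc1 fell in the same libraries, and whether any of these genes had a part in its level was not tested.

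Of the remaining polyamine genes, 4 of 7 were tested and 2 fell. Azin2, the other antizyme inhibitor, was at 35.7, 34.9 and 37.7 CPM in shNC and at 18.3, 20.5 and 14.5 CPM in shTrem2 (log2 fold change -1.02 ± 0.10 SE, edgeR adjusted p = 1.74e-06). Oaz3, another antizyme, had a low level and fell from 2.56 ± 0.875 to 0.451 ± 0.11 CPM (-2.49, edgeR adjusted p = 6.46e-05; -0.97 on log2(FPKM + 1)). Its 31 to 63 counts in shNC and 7 to 11 in shTrem2 let it pass the filter through shNC, and it too dropped out with at least 10 counts required in every library. Both fell without overlap between groups.

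**Figure D5:**
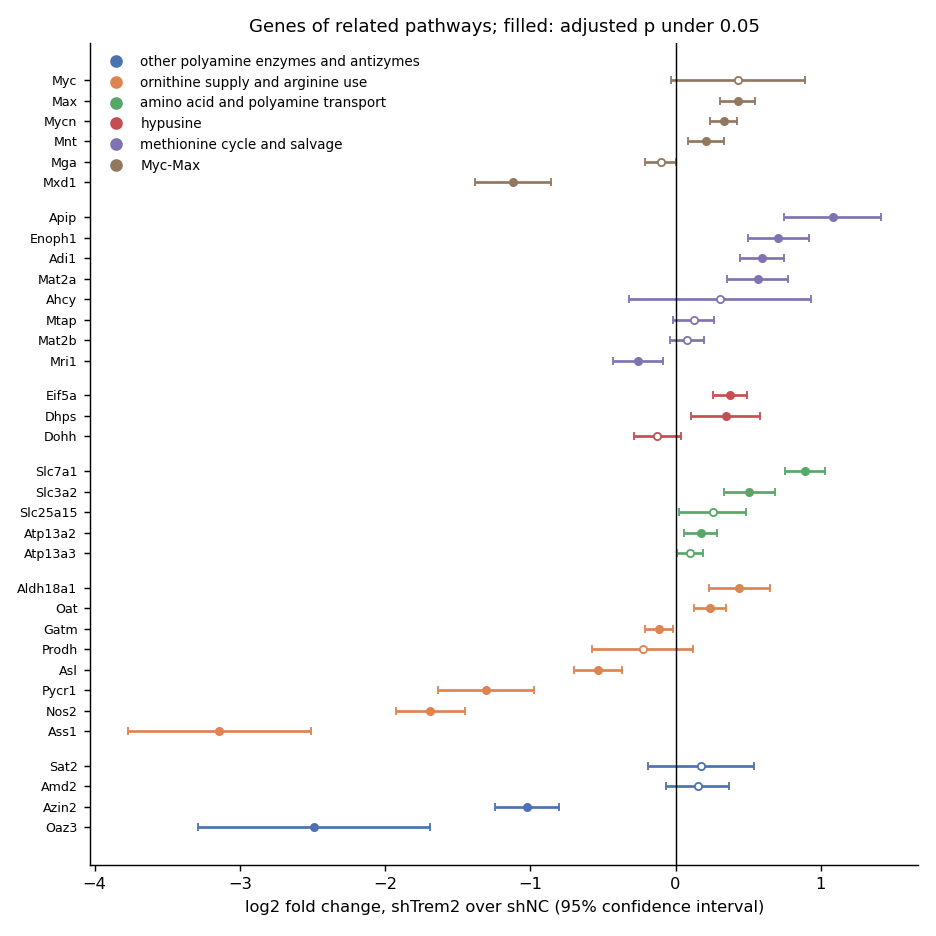
Log2 fold change, shTrem2 over shNC, with 95% confidence intervals from edgeR, for the 34 tested genes of 6 related lists. Filled points have an adjusted p under 0.05; Slc7a1 (0.89), Apip (1.08) and Eif5a (0.38) lie to the right of 0, and Nos2 (-1.69), Ass1 (-3.14) and Azin2 (-1.02) to the left.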

How the data were processed

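RNA-seq libraries of RAW264.7 cells (3 shNC, 3 shTrem2) were grouped by the titles in the labels. Reads had been trimmed (fastp), aligned (HISAT2) and assembled into transcripts (StringTie) by the authors. The submitters' processing notes name the build GRCm39, and the tool versions and the annotation release are not given in the sources used here. The authors deposited estimated counts per transcript, carrying gene symbols only (79.3% of nonzero values not whole), and FPKM per gene. Library preparation was stranded. Columns of group means, made by the authors, were not used.

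Counts were summed per symbol and rounded. Rows without a symbol (0.908% to 1.12% of counts) were left out. Genes were tested with edgeR 4.0.16 in R 4.3.3 (TMM, filterByExpr, quasi-likelihood, no covariates), with Benjamini-Hochberg adjustment over 13528 genes; a call is an adjusted p under 0.05. The standard error is the size of the log2 fold change divided by the square root of F. The script was tested on simulated data. The biological coefficient of variation was 0.0598. The limit of a 0 count was set at 3 counts, or 0.153 to 0.189 CPM, and reflects counting error alone, as reads copied by PCR are not separate molecules. Alternatives were DESeq2 1.42.0, other scalings and filters, limma 3.58.1 (voom, and trend on log2(FPKM + 1) and log2(FPKM + 0.1)), an effective-length offset, a replicate block, other thresholds and each library left out.

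Transcript rows were assigned by rebuilding each gene's FPKM from GENCODE M21 lengths within 1%; this succeeded for Odc1, Sat1, Srm, Azin1 and Paox. Transcript and upstream sequences come from GENCODE M21 (GRCm38) and RefSeq (GRCm38.p6), not the build of the files. Copies are other annotated genes with a 150-nt window identical to a member's first transcript, found in 5 members; adding their counts was chosen after seeing the data. Named genes were the members, Trem2, Arg1, Arg2, Nos2, Slc7a2, Eif5a and Myc. Per related list, up to 4 further called genes with the largest changes and at least 1 CPM were also named. Srm-203, the other transcripts, the pseudogenes, Gatm, Mri1, Mtap and individual marker genes were named after their values were seen. The members and lists were chosen with earlier results of these data known.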

Additional observations from a re-analysis of the deposited data

How the results depend on the processing

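Odc1, Sat1 and Smox kept their direction and their call under all alternatives run, and Oaz1 lost its call only where a fold change over 1.5 was required. Trem2 also kept both, and its log2 fold change moved from -0.87 to -2.06 and -2.08 on log2(FPKM + 1) and log2(FPKM + 0.1) and to -2.07 with the effective-length offset. The number of members called higher in shTrem2 was 2, and it was 1 with library size only, on both FPKM scales, with the effective-length offset and at an adjusted p under 0.01, and 0 when a fold change over 1.5 was also required; with each library left out in turn it was 1 to 2. For related genes the number called higher was 14, and 4 with the fold criterion. Oaz2 was 0.13 with library size only, 0.068 and 0.069 on the FPKM scales and 0.10 with the offset, and between 0.13 and 0.18 with each library left out. Paox was -0.37 and -0.45 on the FPKM scales and -0.43 with the offset. Sms turned to -0.032 and -0.033 on the FPKM scales and to -0.0041 with the offset. With each library left out in turn, Srm ran from -0.033 to 0.11 and Amd1 from -0.023 to 0.12, and both were below 0 without replicate 3 of shTrem2. The cause of these changes was not tested. The median log2 fold change over all genes shifted by less than 0.1 under every scaling.

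Replicate numbers were not shown to pair the libraries, since deviations of libraries with the same number correlated at 0.0062, -0.0044 and 0.0066 over 13528 genes. With the replicate block 7678 genes were called in place of 7763, and no member's call changed (Odc1 -1.35, Sat1 -1.71).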
